A study of Rattus norvegicus with 16 samples.

Results

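The glucocorticoid receptor (Nr3c1), its chaperones and the enzymes that set local corticosteroid levels were followed in the lung and adipose tissue of rats with house dust mite (HDM)-induced allergic inflammation. The genes were Nr3c1, Nr3c2, Hsd11b1, Hsd11b2, H6pd, Fkbp4, Ptges3, Hsp90aa1 and Hsp90ab1. They were chosen by name, with earlier results of these data known. They are 9 of the 16678 gene symbols that could be given to the array, and 14 of the 45598 probes report them. All 9 were measured and all were well above background on every array, by the brightest probe of each gene in a tissue. Lung and adipose tissue came from 8 male Brown Norway rats, and every rat received the adjuvant Al(OH)3. The rats are described as 7 weeks old for sensitization, and their age at tissue collection is not stated. In the 5 HDM rats, sensitization took 3 weeks of weekly subcutaneous doses (45 µg of HDM each). A challenge phase of 3 weeks followed, with 3 intranasal doses per week (120 µg each). The 3 control rats had saline in place of HDM in both phases. RNA of each rat and tissue was hybridized to 1 array of a 1-color Agilent design, 16 arrays in all. The model is a single protocol in males of 1 inbred strain at 1 time point.

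The glucocorticoid receptor waits in the cytoplasm in a complex with Hsp90, the co-chaperone p23 (encoded by Ptges3) and the immunophilin FKBP52 (encoded by Fkbp4), which help it bind hormone and move to the nucleus. The amount of active hormone inside a cell depends on 11β-hydroxysteroid dehydrogenases. Hsd11b1 regenerates active corticosterone from its inert 11-keto form with NADPH that H6pd supplies, and Hsd11b2 inactivates corticosterone, which protects the mineralocorticoid receptor (Nr3c2) in sodium-transporting epithelia.

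All values are log2 signals relative to the 75th percentile of the array, so that 0 is the level of that percentile, and levels were compared only within a probe. HDM and control rats were compared with limma, with p-values adjusted over all 45598 probes. A probe was called changed at an adjusted p below 0.05 and a fold change above 1.5. The 75th percentile of the signal ranged from 376 to 488 in lung and from 111 to 240 in adipose tissue. Each tissue had a slide of its own, with HDM rats 1 to 4 in one row and HDM rat 5 with the 3 control rats in the other. Markers of alveolar and airway epithelium averaged 6.66 to 7.00 in lung and adipocyte markers averaged 4.65 to 6.07 in adipose tissue, as the tissue labels say. The adipose arrays of control rat 1 and HDM rat 1 stood apart, since in them 12 epididymis and testis genes averaged 6.19 and 5.94, against −5.20 to −3.46 in the other adipose arrays. The differences of the members between HDM and control rats in adipose tissue are therefore also given without these rats. In bulk tissue, fewer cells of a type and less RNA per cell cannot be told apart.

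In lung, the co-chaperone Fkbp4 fell in HDM rats and a second probe of each Hsp90 gene was called lower, while neither the receptors nor the steroid-converting enzymes passed the test. By the brightest probes Fkbp4 was the only member called, at 2.07-fold lower (log2 −1.05, SE 0.13, adjusted p = 0.0150). That is 1 of 9 members, against 0.855% of all probes called in lung (390) and 0.373% called lower. Without 1 rat the number of lung probes called was between 100 and 333. In 3 of the 9 members (Fkbp4, Ptges3 and Hsp90ab1) every HDM rat lay below every control rat, which held for 4.97% of all probes. The plot of member values by rat shows these separations and the overlap of the other genes.

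**Figure D1:**
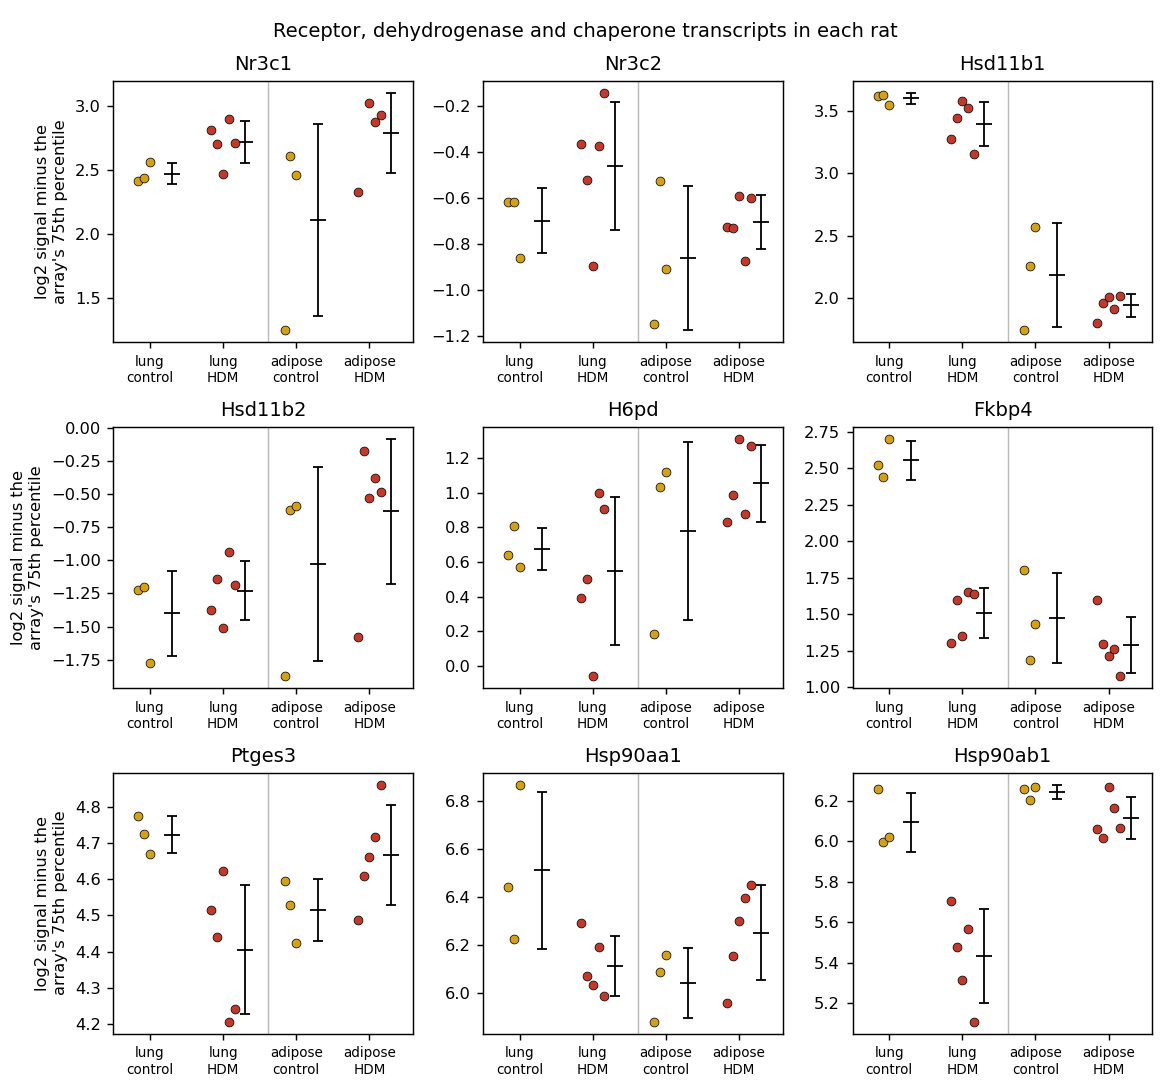
Log2 signal minus the 75th percentile of the array (vertical axis) for the 9 members in lung and adipose tissue, 1 point per rat (yellow, 3 control rats; red, 5 HDM rats), with the mean and SD beside the points. Fkbp4 in lung lay between 2.44 and 2.70 in control rats and between 1.30 and 1.65 in HDM rats, and the vertical axes differ between genes.

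Fkbp4 encodes the immunophilin that links the receptor complex to dynein for transport to the nucleus. In lung its level was 2.53, 2.44 and 2.70 in control rats 1 to 3, and 1.30, 1.60, 1.35, 1.65 and 1.64 in HDM rats 1 to 5. The means were 2.56 ± 0.13 (SD, n = 3) and 1.51 ± 0.17 (SD, n = 5). Every HDM rat lay below every control rat, and the exact permutation test gave p = 0.0179, the smallest that 56 splits of 5 and 3 rats allow. Within the slide row shared by both groups, HDM rat 5 lay 0.91 below the mean of the 3 control rats. With the row as a block the comparison rests on these rats alone. In that row HDM rat 5 differed from the control mean by −0.98 in Hsp90ab1, −0.53 in Hsp90aa1, −0.48 in Ptges3, −0.44 in Hsd11b1, 0.55 in Nr3c2, 0.23 in Nr3c1, 0.23 in H6pd and 0.21 in Hsd11b2. Without any 1 of the control rats Fkbp4 was no longer called, with adjusted p between 0.0679 and 0.0786, while its log2 fold change stayed between −1.11 and −0.97.

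Hsp90 is the ATP-driven chaperone that holds the receptor ready for hormone, and its cytosolic forms are Hsp90aa1 (inducible) and Hsp90ab1 (constitutive). Hsp90ab1 was 6.26, 5.996 and 6.02 in the lungs of control rats 1 to 3 and 5.71, 5.48, 5.32, 5.57 and 5.11 in HDM rats 1 to 5. All HDM rats lay below all control rats, the fold change was 1.58 (log2 −0.66, SE 0.16), and the adjusted p was 0.131. The other Hsp90ab1 probe differed by −0.69 (SE 0.10, adjusted p = 0.0270) and was called, again with no overlap between the groups.

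Hsp90aa1 was 6.44, 6.22 and 6.87 in control rats and 6.29, 6.07, 6.03, 6.19 and 5.99 in HDM rats. The lowest control rat lay inside the HDM range, and the difference of −0.40 (SE 0.16) had an adjusted p of 0.446. The second Hsp90aa1 probe separated the groups, at 5.85, 5.64 and 5.68 in control rats against 4.81 to 5.06 in HDM rats, and was called (log2 −0.77, SE 0.11, adjusted p = 0.0214). The call for either Hsp90 gene therefore depended on the probe taken: neither brightest probe was called, and both second probes were.

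Ptges3 encodes p23, which stabilizes the hormone-binding state of the receptor complex. Its level was 4.77, 4.72 and 4.67 in control lungs and 4.52, 4.44, 4.62, 4.21 and 4.24 in HDM lungs. The groups did not overlap, but the difference was small (log2 −0.32, SE 0.13, adjusted p = 0.438) and the exact permutation p was 0.0536.

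The receptor itself was slightly higher on average in HDM lungs and did not pass the test. Nr3c1 was 2.41, 2.44 and 2.56 in control rats and 2.81, 2.70, 2.47, 2.90 and 2.71 in HDM rats. HDM rat 3 lay inside the control range, and the other 4 HDM rats lay above it. The difference was 0.24 (95% confidence interval −0.04 to 0.53, adjusted p = 0.589), so a change of up to 0.53 on the log2 scale lies within the interval. A second Nr3c1 probe differed by 0.16 (SE 0.10). Another differed by −0.06 (SE 0.15), less than its SE, so its direction is not settled.

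Nr3c2, the mineralocorticoid receptor, which binds corticosterone with high affinity, ranged from −0.86 to −0.62 in control lungs and from −0.90 to −0.14 in HDM lungs. The groups overlapped, with a difference of 0.24 (95% confidence interval −0.17 to 0.64, adjusted p = 0.799). Its other probe was well above background on 1 lung array and on no adipose array, and its differences are not read here.

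The steroid-converting enzymes overlapped between the groups in lung. Hsd11b1 was 3.62, 3.63 and 3.55 in control rats and 3.28, 3.44, 3.58, 3.52 and 3.16 in HDM rats. The control rats lay close together and HDM rat 3 reached into their range, with a difference of −0.20 (95% confidence interval −0.49 to 0.08, adjusted p = 0.711). Hsd11b2 ranged from −1.78 to −1.20 in control rats and from −1.51 to −0.94 in HDM rats, a difference of 0.17 (95% confidence interval −0.26 to 0.60, adjusted p = 0.908). H6pd ranged from 0.57 to 0.81 in control rats and more widely, from −0.06 to 1.00, in HDM rats, a difference of −0.13 (95% confidence interval −0.68 to 0.43, adjusted p = 0.975). The intervals of Hsd11b1, Hsd11b2 and H6pd include 0. The plot of the changes with their intervals sets the lung beside the adipose values.

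**Figure D2:**
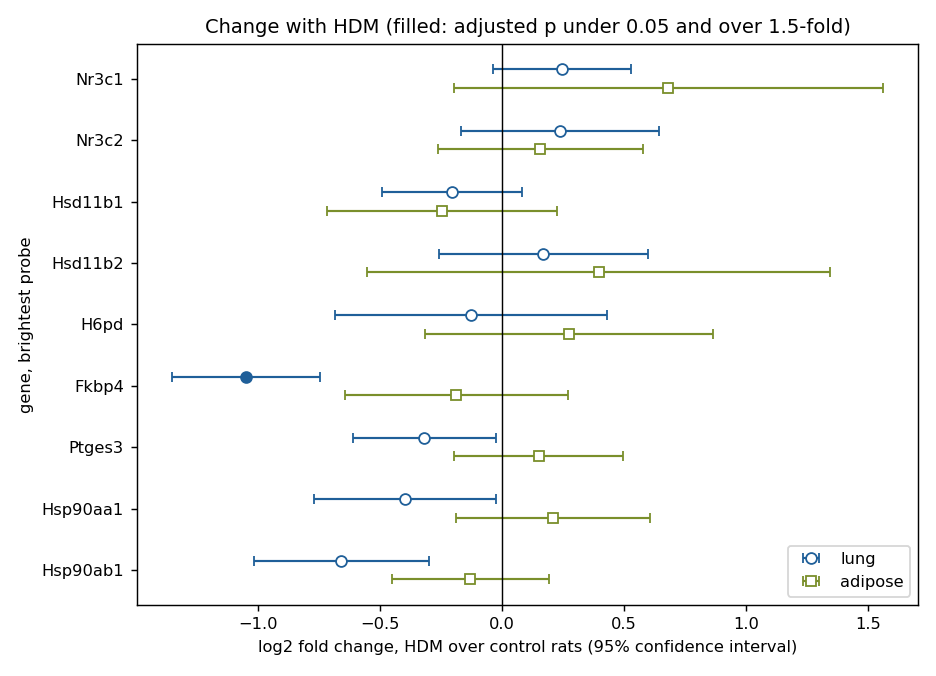
Log2 fold change of HDM over control rats (horizontal axis) with its 95% confidence interval for the brightest probe of each member, in lung (circles) and adipose tissue (squares). Filled symbols passed an adjusted p of 0.05 and a fold change of 1.5, which only Fkbp4 in lung did. The intervals of Ptges3, Hsp90aa1 and Hsp90ab1 in lung also lay below 0, before adjustment over all probes.

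In adipose tissue no member was called, as was no probe of the whole array (0% called), although 7 probes were called with quantile normalization and 3 with median scaling. At an unadjusted p below 0.05 there was again no member, against 9.90% of all probes, and in no member were the groups apart, against 6.26% of all probes. The smallest adjusted p of a member was 0.611, for Nr3c1. Over all probes, the median adipose change was −0.15 (log2) with the scaling used, 0.14 with median scaling and 0.03 with quantile normalization. The signs of small adipose differences are therefore relative to the scaling: those of Hsd11b1, Fkbp4 and Hsp90ab1, which were negative, turned positive with median scaling.

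Adipose Nr3c1 was 1.25, 2.61 and 2.47 in control rats 1 to 3 and 2.33, 3.02, 2.88 and 2.93 in HDM rats 1, 3, 4 and 5. The spot of HDM rat 2 was marked as an outlier and was left out of the fit. Control rat 1 was the lowest of all and HDM rat 1 the lowest of its group, and the groups overlapped through HDM rat 1. The difference was 0.68 (SE 0.37), or 0.83 above the median of all adipose probes. Without control rat 1 and HDM rat 1 it was 0.41 (adjusted p = 0.747). A second Nr3c1 probe, with a value for all 5 HDM rats, differed by 0.38 (SE 0.20), and another by 0.22 (SE 0.26).

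Adipose Hsd11b1, for which adipose tissue is a well-known site of corticosterone regeneration, was 1.75, 2.26 and 2.57 in control rats 1 to 3 and 1.80, 1.96, 2.02, 1.92 and 2.02 in HDM rats 1 to 5. The HDM rats lay close together, and the control rats spread on both sides of them. The difference was −0.25 (SE 0.20, adjusted p = 0.762). Without control rat 1 and HDM rat 1 the log2 fold change was −0.43 (adjusted p = 0.684).

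Hsd11b2 in adipose tissue was −1.87, −0.62 and −0.59 in control rats and −1.58, −0.18, −0.53, −0.38 and −0.48 in HDM rats. The low value of each group belonged to rat 1, and the other 6 rats lay between −0.62 and −0.18. The difference was 0.40 (SE 0.41, adjusted p = 0.820) and fell to 0.21 without control rat 1 and HDM rat 1. H6pd was 0.19, 1.04 and 1.12 in control rats and between 0.83 and 1.31 in HDM rats, and its difference of 0.28 (SE 0.26, adjusted p = 0.801) fell to 0.03 without the same 2 rats. In Nr3c1, Hsd11b1, Hsd11b2, H6pd and Hsp90aa1 the lowest adipose value of both groups was that of rat 1, and in Fkbp4 rat 1 of each group had the highest. The part of the epididymis and testis transcripts in these values was not tested.

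**Figure D3:**
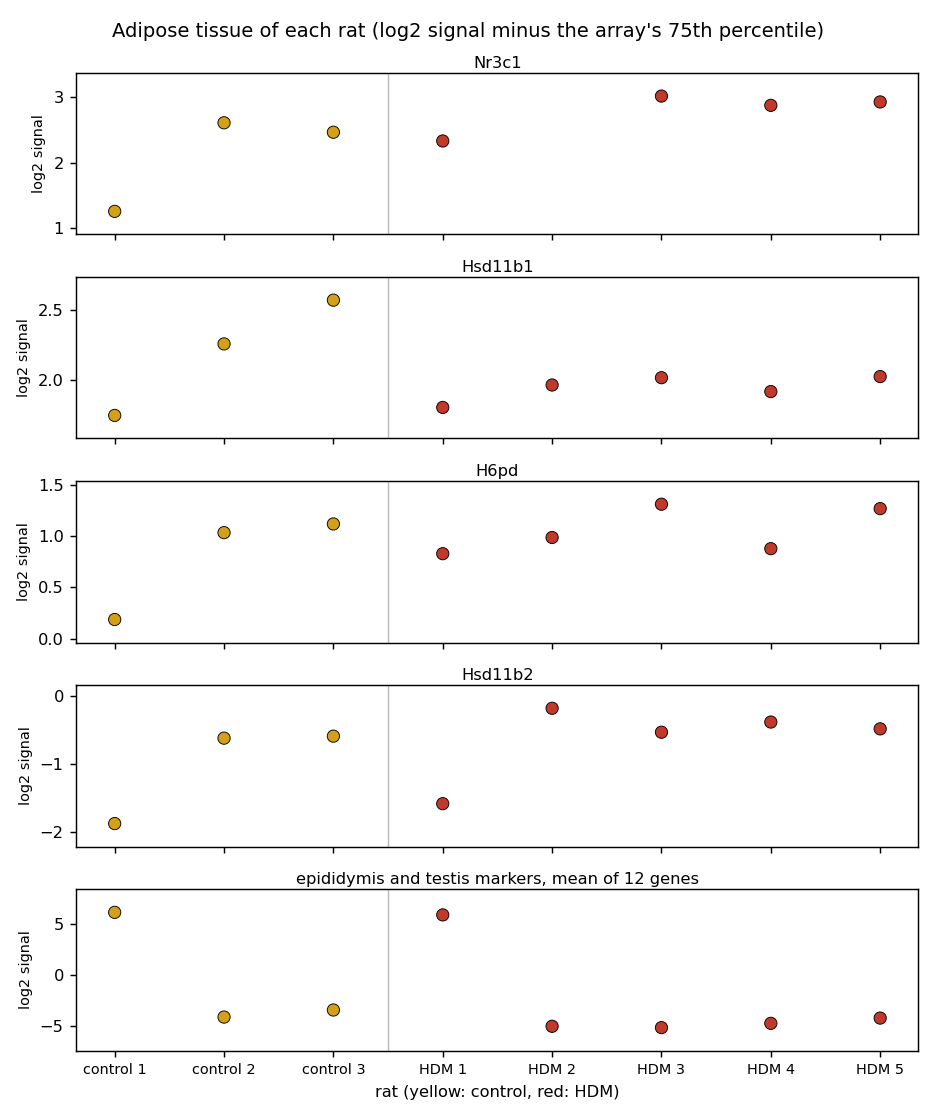
Log2 signal minus the 75th percentile of the array (vertical axes) of Nr3c1, Hsd11b1, H6pd and Hsd11b2 in the adipose tissue of each rat, above the mean of 12 epididymis and testis marker genes. Control rat 1 and HDM rat 1, with marker means of 6.19 and 5.94, held the lowest value of their group in each of these 4 genes, and the Nr3c1 spot of HDM rat 2 is missing.

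The chaperones overlapped between the groups in adipose tissue. Fkbp4 was 1.80, 1.19 and 1.43 in control rats and 1.60, 1.30, 1.21, 1.26 and 1.08 in HDM rats, a difference of −0.19 (SE 0.20, adjusted p = 0.820). Rat 1 was the highest of each group, and without control rat 1 and HDM rat 1 the difference was −0.10. Hsp90ab1 was 6.20 to 6.27 in control rats and 6.02 to 6.27 in HDM rats, with a difference of −0.13 (SE 0.14), or −0.11 without these rats. Hsp90aa1 and Ptges3 differed by 0.21 and 0.15, with adjusted p of 0.760 and 0.820, and by 0.20 and 0.24 without these rats. The mineralocorticoid receptor Nr3c2 differed by 0.16 (adjusted p = 0.820), which fell to 0.02 without them.

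Whether a change with HDM differed between the tissues was tested on lung minus adipose values within each rat. Lung and adipose samples of a group with the same replicate number in their labels were taken to be from 1 animal. With limma no member passed (0 of 9), as only 1 probe of the array did (0.00219%), and Fkbp4, Hsp90aa1 and Hsp90ab1 had an unadjusted p below 0.05. For Fkbp4 the change in lung was 0.86 lower than in adipose tissue (log2 −0.86, 95% confidence interval −1.46 to −0.26, unadjusted p = 0.0108, adjusted p = 0.518). For Hsp90aa1 and Hsp90ab1 the differences were −0.61 and −0.53, with adjusted p of 0.628 and 0.632. For Nr3c1 and Hsd11b1 they were −0.43 and 0.04, with intervals that include 0. The call of Fkbp4 in lung is thus not shown to be particular to that tissue.

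The levels of the members were also compared between the tissues, within each rat. The levels of 63.8% of all probes differed between lung and adipose tissue, and those of 3 members did. Each tissue was hybridized on its own slide, so tissue and slide cannot be told apart. Hsd11b1 was higher in lung in 8 of 8 rats, by 0.98 to 1.88 (mean 1.43, SE 0.12, 2.69-fold, adjusted p = 4.76e-05). Fkbp4 was higher in lung in 7 of 8 rats, by 0.65 (SE 0.13, adjusted p = 0.00296), and HDM rat 1 was the exception. These differences kept their direction and passed the test with median scaling, with scaling to Gapdh and Hprt1, and without any 1 rat. The adipose arrays of HDM rat 1 and control rat 1 are those with high epididymis and testis transcripts. Level differences without both of these rats are not given.

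Hsp90ab1 was higher in adipose tissue in 7 of 8 rats, by 0.42 (log2 −0.42, SE 0.11, adjusted p = 0.0108), and control rat 1 was level. With median scaling the adjusted p was 0.0909, and with scaling to Gapdh and Hprt1 the difference was 0.02, so that this order rests on the scaling. In order of level, Hsd11b1 in lung lay above Hsd11b1 in adipose tissue in both groups. Fkbp4 was highest in control lung, and its 3 other groups, with means of 1.51 in HDM lung, 1.47 in control and 1.29 in HDM adipose tissue, lay within their spread of each other. The groups of Nr3c1, Nr3c2, Hsd11b2, H6pd, Ptges3 and Hsp90aa1 did not differ between tissues at an adjusted p below 0.05.

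**Figure D4:**
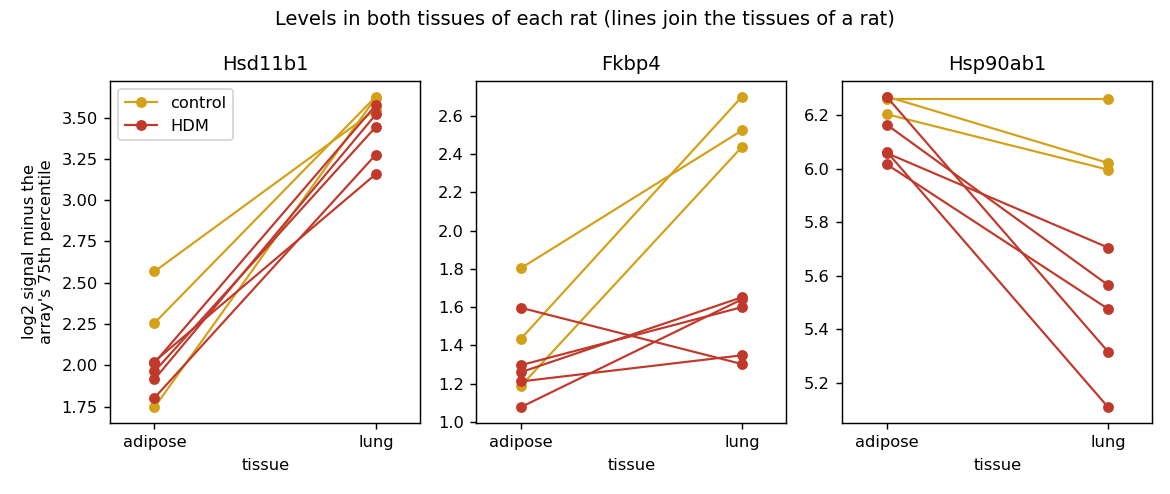
Log2 signal minus the 75th percentile of the array (vertical axis) of Hsd11b1, Fkbp4 and Hsp90ab1 in adipose tissue and lung, with a line joining both tissues of each rat (yellow, control; red, HDM). All 8 lines of Hsd11b1 rise from adipose tissue to lung, and for Fkbp4 the 3 control lines end at 2.44 to 2.70 and the 5 HDM lines at 1.30 to 1.65.

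The members were set beside lists of their partners. These and the later lists were also written with earlier results of these data known. Their shares beside all probes are therefore not independent of these data. Of 19 co-chaperones and relatives of Hsp90, 18 were measured. In lung 3 of them were called, all lower in HDM rats, 17 of 18 had a lower mean and in 8 every HDM rat lay below every control rat. Over all probes 0.373% were called lower and 4.97% had every HDM rat below. The median log2 fold change of the list was −0.23, against 0.0028 over all probes. The 3 were Fkbp5, the FK506-binding protein that competes with Fkbp4 in the receptor complex and is induced by glucocorticoids, Dnaja1, an Hsp40 co-chaperone of Hsp70, and Stip1, the Hop adaptor between Hsp70 and Hsp90.

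Fkbp5 was 4.45, 4.01 and 4.20 in control lungs and 1.36 to 1.56 in HDM lungs, 6.86-fold lower (log2 −2.78, SE 0.13, adjusted p = 0.000134). Dnaja1 was 2.91 to 3.08 in control lungs and 1.67 to 1.88 in HDM lungs (log2 −1.24, SE 0.10, adjusted p = 0.00177). Stip1 was 1.12 to 1.19 and 0.13 to 0.32 (log2 −0.93, SE 0.10, adjusted p = 0.00686). In each of these 3 genes the control rats lay far above every HDM rat. In adipose tissue none of the 18 was called. Fkbp5 was 4.80 to 5.12 in control and 2.54 to 3.37 in HDM rats there, without overlap (log2 −2.05, SE 0.21, adjusted p = 0.0853), and it was called in 4 of the alternatives, with adjusted p of 9.21e-05 to 0.0205. Of the 18 adipose means 9 were lower, and 4 to 10 over the alternatives.

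Of 16 genes of the heat shock response, 15 were measured. All 15 had a lower mean in HDM lungs, in 11 every HDM rat lay below every control rat (4.97% of all probes), and 3 were called lower (0.373% of all probes), with a median log2 fold change of −0.48. Hsph1, the Hsp110 nucleotide exchange factor of Hsp70, was −0.55 to −0.26 in control and −2.07 to −1.63 in HDM lungs (log2 −1.40, SE 0.13, adjusted p = 0.00442). Chordc1, an Hsp90-binding co-chaperone, differed by −0.94 (SE 0.15, adjusted p = 0.0389), and Hspb1, the small heat shock protein Hsp27, by −0.70 (SE 0.11, adjusted p = 0.0425). The count of 3 fell to 1 without HDM rat 1, 2 or 4 or without any 1 control rat, and to 2 without HDM rat 3 or 5, while all 15 means stayed lower. HDM rats 1 to 4 share a slide row with no control rat. A fit with the row as a block therefore compares HDM rat 5 alone with the 3 control rats. In that fit the log2 fold changes were −2.83 for Fkbp5, −1.32 for Dnaja1 and −0.85 for Stip1. They were −1.19 for Hsph1, −1.14 for Chordc1 and −0.68 for Hspb1. In adipose tissue none was called. There 9 of 15 means were lower, with a median of −0.08, but over the alternatives 4 to 11 were lower and the median ran from −0.16 to 0.21.

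**Figure D5:**
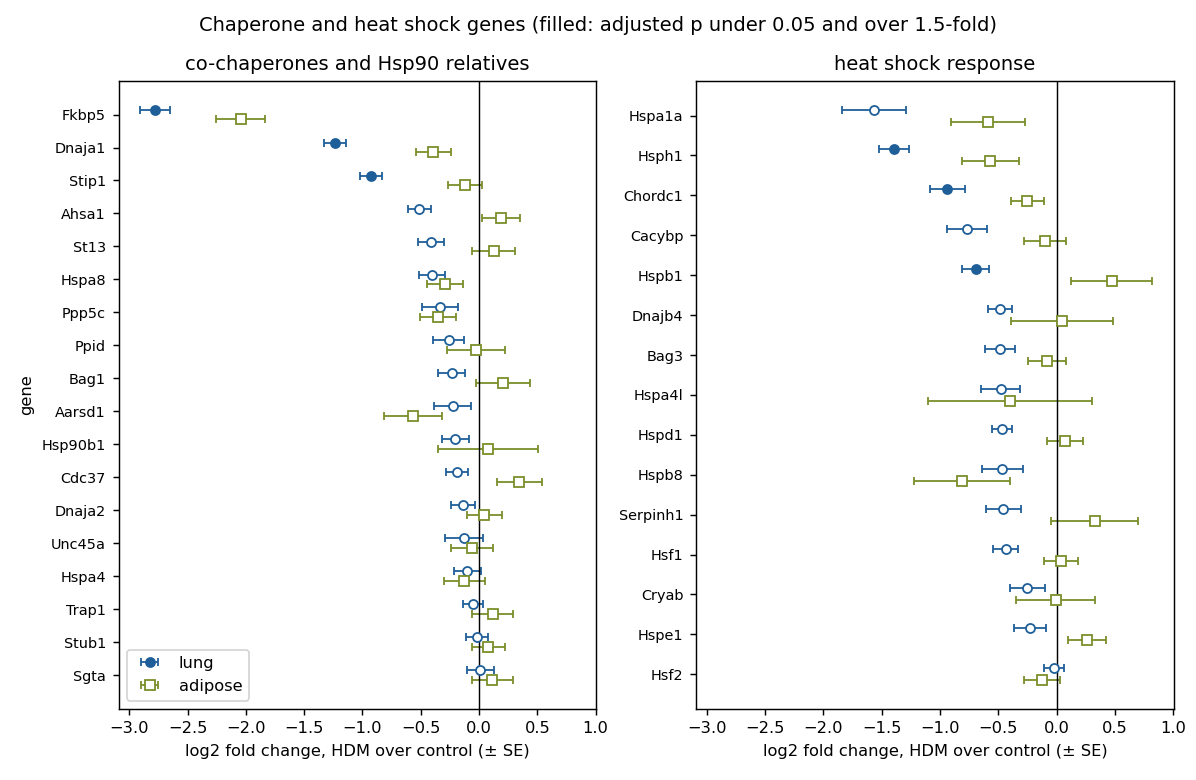
Log2 fold change of HDM over control rats (horizontal axis) with its SE for 18 co-chaperones and Hsp90 relatives (left) and 15 heat shock genes (right), in lung (circles) and adipose tissue (squares). Filled symbols passed an adjusted p of 0.05 and a fold change of 1.5. In lung 17 of 18 and 15 of 15 points lie below 0, and in adipose tissue 9 of 18 and 9 of 15.

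The sequences before the start sites of the members and of the listed genes were read from the RefSeq promoter table (GRCr8). Heat shock factor binds repeats of a short unit, written here as an inverted pair, GAANNTTC or TTCNNGAA, on both strands. Windows of 300 bases, from 250 before to 50 after the start, were found for 5 of the 9 members (Nr3c1, H6pd, Fkbp4, Ptges3 and Hsp90ab1). Only that of Fkbp4 held a pair, which 15.9% of all 33469 promoters hold. None held the core ACANNNTGT of the glucocorticoid response element, which 6.86% of all promoters hold. Hsp90ab1, whose window held no pair, was also lower in HDM lungs by its brightest probe (log2 −0.66, not called) and its other probe (log2 −0.69, called). The 250 bases before the start are shown for Fkbp4 (minus strand, chr4:163397919-163398168) and Hsp90ab1 (plus strand, chr9:22930173-22930422), 5′ to 3′, with the pair in capitals. The first base of the pair lies 137 bases before the Fkbp4 start.
Fkbp4: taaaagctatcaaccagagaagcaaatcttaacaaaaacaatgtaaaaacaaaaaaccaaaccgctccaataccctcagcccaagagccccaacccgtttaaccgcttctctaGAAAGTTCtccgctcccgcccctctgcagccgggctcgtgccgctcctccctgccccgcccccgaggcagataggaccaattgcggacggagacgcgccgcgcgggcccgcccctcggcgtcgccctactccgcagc
Hsp90ab1: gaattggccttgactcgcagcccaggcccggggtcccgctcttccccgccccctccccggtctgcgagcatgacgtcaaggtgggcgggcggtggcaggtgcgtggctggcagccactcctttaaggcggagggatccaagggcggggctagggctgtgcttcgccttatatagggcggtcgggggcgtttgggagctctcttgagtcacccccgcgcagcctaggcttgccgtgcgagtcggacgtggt

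In the heat shock list 10 of 12 genes with a promoter entry held a pair, and 5 held the pair extended by a further unit, which 0.798% of all promoters hold. These genes were listed by name for the heat shock response, so that share gives no information on the change with HDM. Hspa1a, with the largest fall of that list in lung (log2 −1.57, not called), held no pair, while Hspd1 and Hspe1, also not called, held pairs. The part of the pairs in the lower lung transcripts was not tested. In the co-chaperone list 5 of 17 held a pair and 2 the extended form. The last 140 bases before the start are shown for Hsph1 (plus strand, chr12:10427228-10427367) and Hspb1 (minus strand, chr12:26432302-26432441), which were called in lung, with pairs in capitals. Fkbp5, the called gene of these lists with the largest change, held no pair in its window, and the pairs of Chordc1 lay after the start. The run of capitals nearest the Hsph1 start holds 2 overlapping pairs and begins 36 bases before it.
Hsph1: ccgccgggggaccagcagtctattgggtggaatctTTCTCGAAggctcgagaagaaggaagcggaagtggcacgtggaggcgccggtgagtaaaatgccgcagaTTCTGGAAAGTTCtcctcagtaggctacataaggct
Hspb1: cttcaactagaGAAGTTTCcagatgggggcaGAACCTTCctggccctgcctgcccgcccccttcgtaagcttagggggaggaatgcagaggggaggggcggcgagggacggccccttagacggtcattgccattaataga
A match is a description of the sequence, and Hspd1 and Hspe1 of the heat shock list lie head to head and share promoter sequence.

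The other lists hold genes around the receptor and the enzymes. Their counts stand beside 0.855% of all probes called in lung and 0.373% called lower. Of 8 genes of hexose phosphate and NADPH supply, which feed H6pd, none was called in lung or adipose tissue (median log2 fold change 0.08 in lung). Of 14 genes of corticosteroid synthesis, clearance and transport, 12 were well above background on at least 1 lung array. Called in lung was 1 of them, Abcb1b, a P-glycoprotein that exports corticosteroids. Abcb1b was 0.97 to 1.47 in control and −0.29 to 0.25 in HDM rats (log2 −1.24, SE 0.18, adjusted p = 0.0252). Of 13 receptor coregulators 10 were measured, 9 of them well above background on at least 1 lung array, and none was called (median −0.13). Of 8 sodium transport genes of the mineralocorticoid response 7 were measured and 1 was called in lung. It was Atp1b1, the β subunit of the sodium-potassium ATPase, at 4.53 to 4.87 in control and 3.42 to 3.79 in HDM rats (log2 −1.18, SE 0.13, adjusted p = 0.00880). Of the 4 other steroid receptors of the NR3 family, 2 were well above background on at least 1 lung array, and none was called. In adipose tissue no gene of any list was called. Genes that stayed below that level on every array of a tissue cannot be read as unchanged there. With the slide row as a block, HDM rat 5 alone was compared with the control rats. The log2 fold changes were then −1.53 for Abcb1b and −0.92 for Atp1b1.

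Marker transcripts of other cell types also differed between the groups in lung. Of 9 neutrophil markers 6 were called higher in HDM lungs, and their mean level was −0.28 to 0.20 in HDM and −2.70 to −2.47 in control rats. All 8 epithelial markers had a lower mean in HDM lungs and none was called, with mean levels of 6.66 to 6.81 in HDM and 6.89 to 7.00 in control rats. Their part in the lower chaperone transcripts was not tested.

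The genes whose pattern over the arrays was nearest to 3 of the members were found by the root mean square difference of log2 values, after the median of each tissue was subtracted, among 9724 probes well above background on all 16 arrays. Nearest to Nr3c1, over 15 arrays, were Arhgef6 (0.117), Retsat (0.121) and Man1a1 (0.133). Nearest to Hsd11b1 were Fbxo28 (0.138), Rpusd4 (0.140) and Appbp2 (0.142), and nearest to Hsp90aa1 were Kif16b (0.140), Tbc1d25 (0.146) and Snx3 (0.147).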

How the data were processed

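Lung and adipose RNA of 8 rats was measured on 16 arrays. The authors deposited spot intensities from Agilent Feature Extraction 12.0.3.1, linear and with background removed, and log2 values made in GeneSpring GX. Of these log2 values 99.9% came within 0.1 of the scanner values scaled to the 75th percentile and centered on each probe's tissue median.

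From the intensities, control probes and outlier spots were left out, log2 values of a probe were averaged and the array's 75th percentile was subtracted. HDM and control rats were compared in each tissue with limma 3.58.1 (lmFit, eBayes) in R 4.3.3, with Benjamini–Hochberg adjustment over 45598 probes. Tissues were compared on within-rat differences. Permutation tests were exact and two-sided. The number of arrays limits the precision. The labels number the samples of a group as replicates, which were taken to be separate rats. Symbols came from RefSeq accessions and a GRCr8 gene table. Scripts were tested on simulated data.

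Members and lists were chosen with earlier results of these data known. Named are the members by their brightest probe, up to 4 called genes of each list by size of change, and the 3 nearest genes of 3 members. Fkbp5 in adipose tissue was named after its value was seen. Alternatives were other scalings, background corrections, tests, filters, probes, weights and blocks, and each rat left out. The level alternatives and those for the lists were added after the data were seen. Figures were drawn with matplotlib 3.10.9.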

Additional observations from a re-analysis of the deposited data

Results flagged for a closer look

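Of 17 groups of 5 HDM rats tested for a rat far from the others (9 members in lung and 8 in adipose tissue), 1 passed Dixon's 95% limit of 0.71, and chance passes about 1 in 20 such groups. It was adipose Hsd11b2, where HDM rat 1 lay at −1.58 and the other HDM rats between −0.53 and −0.18. Control rat 1 was similarly low at −1.87 beside −0.62 and −0.59, and these are the 2 adipose arrays with high epididymis and testis transcripts. The part of these transcripts in the low values was not tested.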

How the results depend on the processing

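The number of members called in lung, 1, became 0 with limma treat against a 1.5-fold change. It became 2 (Hsp90ab1 added) with a normexp correction and quantile normalization, with dim probes left out and with adjustment over the probes past 1.5-fold. It ranged from 0 to 1 when 1 rat was left out, and was 0 without any 1 control rat. The count with a block for the slide row is not given, since it rests on 1 HDM rat. The number of members called was 0 in adipose tissue and 0 for the difference between tissues in all alternatives run, while that of all adipose probes was between 0 and 338, the highest with array weights. The methods' t-test called 1 member and 341 lung probes after adjustment. With the replicate block, 0 members and 0 lung probes were called. Rats with the same number in the 2 groups share only a number, and their deviations correlated at −0.08 to 0.05 in lung and 0.10 to 0.59 in adipose tissue. The number of members whose level differed between tissues, 3, became 5 with scaling to Gapdh and Hprt1.

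Small differences changed sign. With median scaling, adipose Hsd11b1 was 0.049, Fkbp4 0.11 and Hsp90ab1 0.17, the differences between the tissues' changes were −0.27 for Nr3c2 and −0.31 for Hsd11b1, and the level difference of Ptges3 was 0.0495. With scaling to Gapdh and Hprt1, the level differences were 0.0068 for Hsd11b2, 0.14 for H6pd, 0.41 for Ptges3 (adjusted p = 0.0227) and 0.0156 for Hsp90ab1, which had passed the test. With the row as a block, which leaves HDM rat 5 alone beside the control rats, lung H6pd was 0.23. With other probes, lung Nr3c1 was −0.057 and adipose Hsp90aa1 −0.049. The other Nr3c2 probe gave −0.42 in lung and −0.46 in adipose tissue. That probe was well above background on 1 lung array and on no adipose array, so these signs are not read. With array weights, adipose Nr3c2 was −0.059. With 1 rat left out, the ranges that crossed 0 were −0.018 to 0.27 for lung Hsd11b2, −0.24 to 0.025 for lung H6pd, −0.027 to 0.63 for adipose Hsd11b2 and −0.022 to 0.44 for adipose H6pd. For the tissues' changes they were −0.047 to 0.27 for Nr3c2, −0.17 to 0.27 for Hsd11b1 and −0.63 to 0.28 for Hsd11b2, and for the levels −0.052 to 0.28 for Nr3c1 and −0.064 to 0.018 for Ptges3. The cause of these changes was not tested.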
